A study of Mus musculus with 12 samples.

Results

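The genes of serine, asparagine, proline and cysteine synthesis were followed in inguinal white adipose tissue (iWAT), the subcutaneous fat pad of the mouse groin. They were taken by name from the deposited expression table as enzymes of the amino acid program linked to ATF4, with the asparaginase Aspg added. All 8 were among the 14159 genes listed, and all 8 were among the 13404 genes tested. They were Phgdh, Psat1 and Psph for serine, Asns for asparagine, Aspg for the breakdown of asparagine, Aldh18a1 and Pycr1 for proline, and Cth for cysteine.

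Polyadenylated RNA of whole iWAT was compared between genotypes and housing temperatures on the C57BL/6 background. All mice carried floxed Atf4 alleles. Atf4AKO mice also carried Adipoq-Cre, and their Cre-negative littermates served as Atf4WT. Mice of both genotypes were kept at room temperature (RT) or exposed to cold for 24 h, which gave 4 groups of 3 biological replicates. The sources used here give no age or sex for these mice. Adipoq-Cre acts in adipocytes, while the RNA came from the whole depot with its vessels, stroma and immune cells, so fewer cells of a type and less RNA per cell cannot be told apart.

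ATF4 is a transcription factor whose protein is made when the integrated stress response slows general translation. It binds composite C/EBP-ATF elements and raises genes for amino acid synthesis, amino acid transport and tRNA charging. Serine is made from a glycolytic intermediate in 3 steps and feeds the folate cycle, while proline is made from glutamate in mitochondria and cysteine is made from homocysteine by transsulfuration. In white fat, cold starts a thermogenic program known as browning.

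The values are normalized counts, that is reads per gene divided by a size factor for the library. A gene was called changed, as a differentially expressed gene (DEG), when its fold change exceeded 1.5 and its unadjusted limma p was under 0.05. Benjamini-Hochberg adjusted p-values over all 13404 genes tested are given beside the calls. Reads counted to the listed genes came to 25719476 to 29105147 per library. All 8 adipocyte markers examined were listed, and their mean log2 value was 15.4 to 15.9 across libraries. With cold, 2 of them (Adipoq and Lep) were called lower in Atf4WT, when 10.3% of all genes fell, and 0 in Atf4AKO. The targeted gene followed the labels. Atf4 had normalized counts of 5669, 4670 and 4107 in Atf4WT at RT, 1594, 1470 and 1639 in Atf4AKO at RT, 7644, 7511 and 5756 in Atf4WT after cold, and 1578, 788 and 1180 in Atf4AKO after cold. Genotypes did not overlap at either temperature, and Atf4 was lower in Atf4AKO by a log2 fold change of -1.61 at RT (adjusted p = 0.0762) and -2.60 after cold (adjusted p = 0.000644).

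Some libraries stood apart in markers of other cells. In Atf4WT after cold, the summed normalized count of 19 B and T cell markers was 4647 to 19985, against 239 to 729 in Atf4AKO after cold. It was 284 to 4421 in Atf4WT at RT and 372 to 935 in Atf4AKO at RT. No listed gene of any kind had a value of 0 in a library. Skeletal muscle markers were high in Atf4WT at RT replicate 2 and Atf4WT cold replicate 0, with mean log2 values of 12.3 and 10.8. That mean was 7.69 in Atf4AKO cold replicate 1 and 3.92 to 5.28 in the remaining libraries. Member counts without the 2 Atf4WT libraries are given in the closing section. Macrophage markers were low in Atf4WT cold replicate 1 and Atf4AKO cold replicate 1, with summed normalized counts of 13082 and 4766. In the other cold libraries that sum was 27568 to 33466. The same 2 libraries had the lowest fibroblast marker sums, 27080 and 33628.

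The 8 genes differed widely in level. Per kb of transcript, Phgdh was the most abundant in Atf4WT at RT, with a mean of 5359 normalized counts per kb, followed by Psat1 at 1404 and Asns at 1190. The ranges of Psat1 and Asns overlapped between libraries. Psph followed at 535 per kb, Cth at 270, Aspg at 119, Aldh18a1 at 82.3 and Pycr1 at 31.2, and no further neighbours in this order overlapped. After cold in Atf4WT, Phgdh at 2175 per kb and Asns at 1985 per kb overlapped. Aspg, at 707 per kb, had moved above Cth and overlapped Psph at 748, while Pycr1 stood last at 5.86 per kb.

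**Figure D1:**
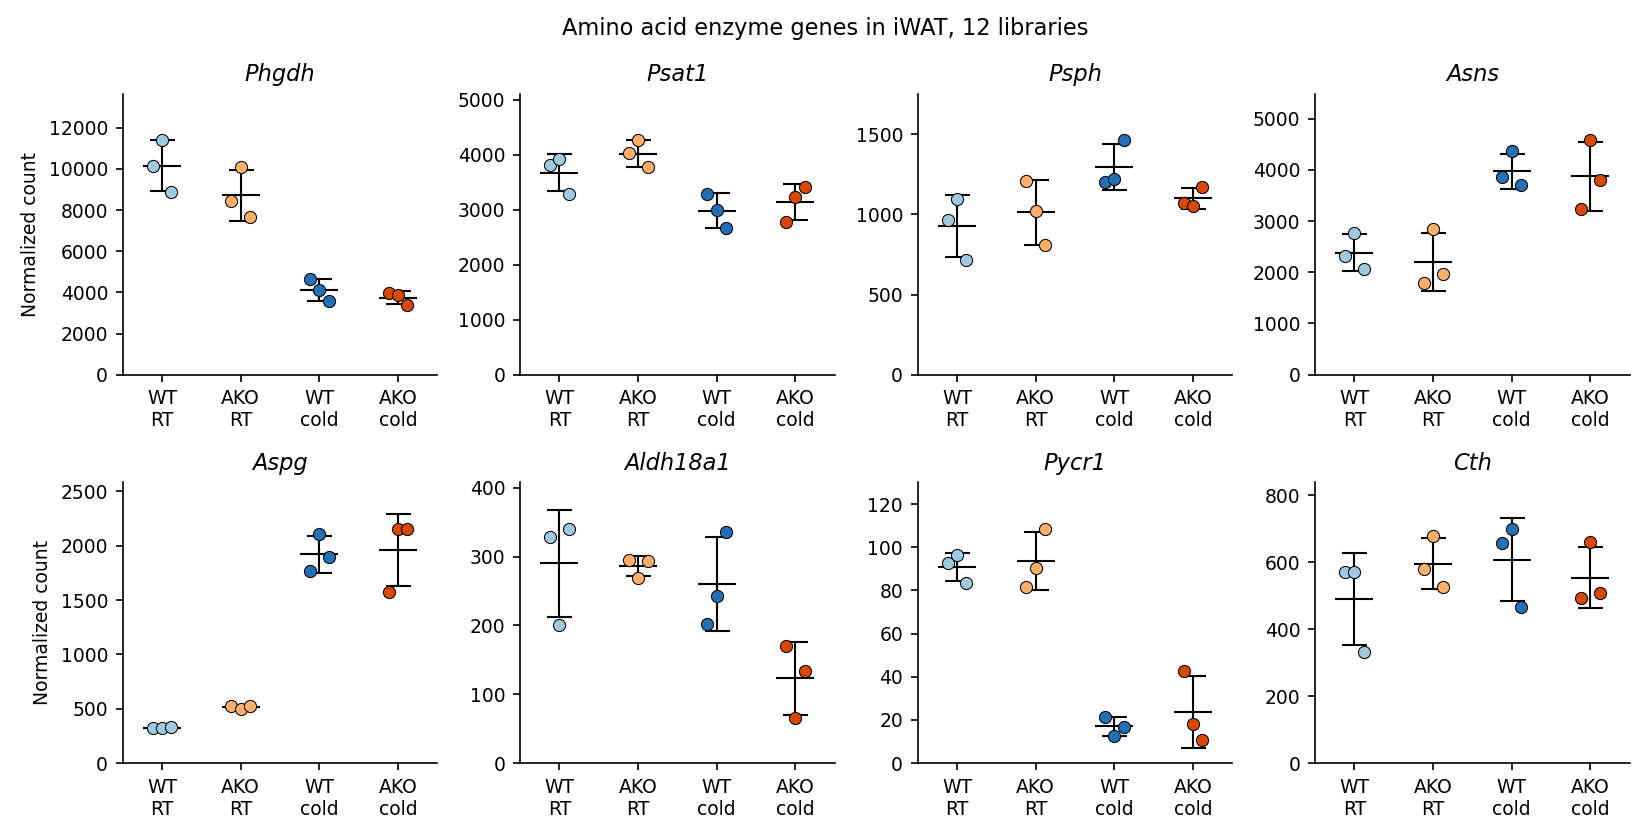
Normalized counts of the 8 genes (y axis, linear from 0, scaled per gene) in the 12 libraries, by genotype (WT, Atf4WT; AKO, Atf4AKO) and temperature; each point is 1 library, the horizontal line is the group mean and the bars are 1 SD of 3 libraries. Phgdh and Pycr1 were lower and Asns and Aspg higher after cold in both genotypes, and Aldh18a1 was lowest in Atf4AKO after cold.

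The upstream sequences of 4 genes are shown because these genes moved with cold in both genotypes, Asns and Aspg upward and Pycr1 and Phgdh downward. Sequences are from RefSeq on GRCm38.p6 and run 5′ to 3′ over the 250 bases before the annotated start. They are Asns at chr6:7693210-7693459 (minus strand), Pycr1 at chr11:120643749-120643998 (minus strand), Aspg at chr12:112106433-112106682 (plus strand) and Phgdh at chr3:98339970-98340219 (minus strand). Capitals mark a match to the core of the C/EBP-ATF element, TGATGNAA.
Asns: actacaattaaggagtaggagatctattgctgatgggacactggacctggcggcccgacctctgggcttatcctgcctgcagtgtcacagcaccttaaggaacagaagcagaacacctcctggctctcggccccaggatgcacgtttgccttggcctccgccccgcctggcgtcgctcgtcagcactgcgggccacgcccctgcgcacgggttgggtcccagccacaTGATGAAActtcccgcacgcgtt
Pycr1: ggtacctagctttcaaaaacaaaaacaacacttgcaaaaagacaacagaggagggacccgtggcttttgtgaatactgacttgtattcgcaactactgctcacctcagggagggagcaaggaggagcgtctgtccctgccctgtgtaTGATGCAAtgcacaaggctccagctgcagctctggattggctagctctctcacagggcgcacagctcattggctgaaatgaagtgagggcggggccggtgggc
Aspg: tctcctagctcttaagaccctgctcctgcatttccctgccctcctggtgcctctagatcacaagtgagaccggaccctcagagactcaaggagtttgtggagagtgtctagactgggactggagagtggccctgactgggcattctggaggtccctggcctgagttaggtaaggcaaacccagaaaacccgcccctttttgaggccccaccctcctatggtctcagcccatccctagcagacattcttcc
Phgdh: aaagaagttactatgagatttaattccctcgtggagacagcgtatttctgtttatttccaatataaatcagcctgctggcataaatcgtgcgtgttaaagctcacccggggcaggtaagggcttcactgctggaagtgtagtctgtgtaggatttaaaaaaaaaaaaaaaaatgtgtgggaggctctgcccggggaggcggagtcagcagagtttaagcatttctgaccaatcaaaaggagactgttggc

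Promoter windows of 300 bases, 250 before the start and 50 from it, were found for 7 of the 8 genes, 8 windows in all, with 2 for Psat1 and none for Cth. The letters TGATGNAA, searched on both strands, occurred in 2 of the 8 windows, against 3.97% of 32851 RefSeq promoter windows. Asns held TGATGAAA beginning 23 bases before the start, and Pycr1 held TGATGCAA beginning 103 bases before it. Full cAMP response elements, TGACGTCA, which read the same on both strands, occurred in 0 of the 8 windows and in 1.79% of all windows. The 2 genes holding the C/EBP-ATF letters moved in opposite directions after cold, and a match in letters is only a description of sequence.

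After 24 h of cold, 4 of the 8 genes passed the DEG thresholds in Atf4WT, when 21.2% of all genes tested did. Asns and Aspg rose (10.9% of all genes rose), and Phgdh and Pycr1 fell (10.3% fell). In Atf4AKO, 5 of the 8 passed, when 17.2% of all genes did: the same Asns and Aspg rose (8.3% of all genes), and Phgdh, Pycr1 and Aldh18a1 fell (8.92%). The median log2 change of the 8 genes was 0.09 in Atf4WT, against 0.00 for all genes, and -0.23 in Atf4AKO, against -0.03. At an adjusted p under 0.05 regardless of fold, 5 of the 8 passed in Atf4WT (31.9% of all genes) and 6 in Atf4AKO (25.9%). Cold and RT libraries did not overlap for 6 of the 8 in each genotype, as for 46.8% of all genes in Atf4WT and 41.7% in Atf4AKO.

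**Figure D2:**
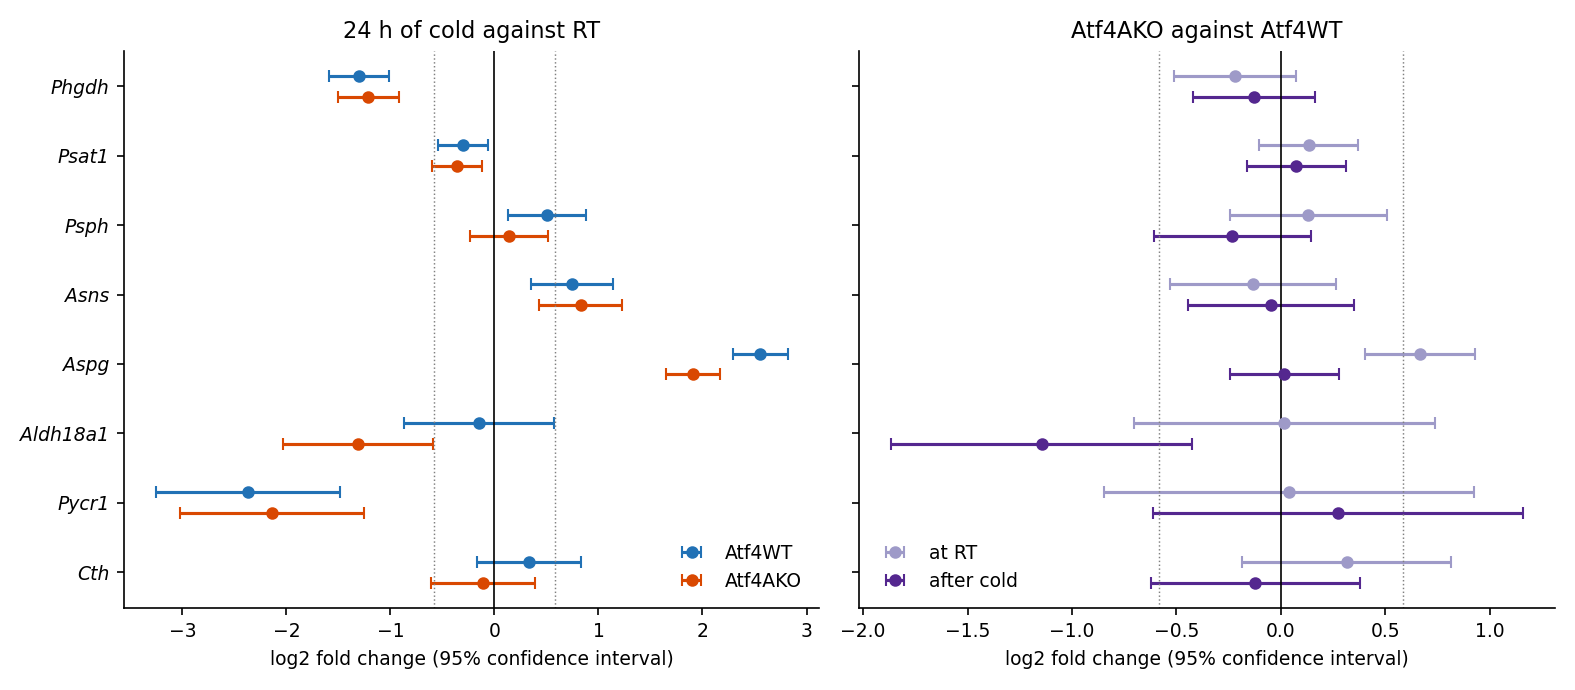
Log2 fold changes of the 8 genes (x axis) with 95% confidence intervals from limma, for cold against RT in each genotype (left) and Atf4AKO against Atf4WT at each temperature (right); the solid line marks no change and the dotted lines a fold change of 1.5. The cold intervals of Phgdh, Psat1, Asns, Aspg and Pycr1 exclude 0 in both genotypes, those of Psph in Atf4WT and Aldh18a1 in Atf4AKO do so too, and on the right those of Aspg at RT and Aldh18a1 after cold do so.

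Of the 3 serine synthesis genes, Phgdh fell after cold in both genotypes, and Psat1 and Psph did not pass both thresholds. Phgdh encodes phosphoglycerate dehydrogenase, which diverts 3-phosphoglycerate from glycolysis (chromosome 3, 98313170 to 98339990, minus strand, GENCODE M21 on GRCm38). Its normalized counts were 10154, 11384 and 8894 in Atf4WT at RT, 8418, 10085 and 7666 in Atf4AKO at RT, 4658, 4129 and 3563 in Atf4WT after cold, and 3976, 3862 and 3407 in Atf4AKO after cold. Every cold library was below every RT library. The cold change was -1.30 on the log2 scale in Atf4WT (SE 0.133, adjusted p = 0.000106) and -1.21 in Atf4AKO (adjusted p = 0.000184). Falls in the 2 genotypes differed by 0.09, with a 95% interval of -0.32 to 0.50.

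Psat1 encodes phosphoserine aminotransferase, the second enzyme (chromosome 19, 15904678 to 15947337, minus strand). Its normalized counts were 3811, 3924 and 3288 in Atf4WT at RT, 4029, 4259 and 3771 in Atf4AKO at RT, 3287, 2995 and 2665 in Atf4WT after cold, and 2768, 3235 and 3415 in Atf4AKO after cold. Cold and RT libraries were apart within each genotype, but by a single count in Atf4WT (3287 against 3288). The log2 change was -0.30 in Atf4WT (adjusted p = 0.0522) and -0.36 in Atf4AKO (adjusted p = 0.0305), both under the fold threshold.

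Psph encodes phosphoserine phosphatase, which releases serine (chromosome 5, 129765558 to 129787449, minus strand). Its normalized counts were 966, 1096 and 718 in Atf4WT at RT, 1210, 1022 and 808 in Atf4AKO at RT, 1204, 1223 and 1463 in Atf4WT after cold, and 1075, 1052 and 1172 in Atf4AKO after cold. Cold libraries were above RT libraries in Atf4WT, and the groups overlapped in Atf4AKO. The log2 change was 0.50 in Atf4WT (adjusted p = 0.0438, below the fold threshold, and 0.63 and called without Atf4WT RT replicate 1) and 0.14 in Atf4AKO (adjusted p = 0.587). The difference between the genotypes was -0.36, with a 95% interval of -0.90 to 0.17. Exons of Psph share 452 bases with Cct6a on the opposite strand, and the strand setting of the counting is not given in the sources used here.

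Among the 18 serine and glycine genes tested, 3 rose and 2 fell in Atf4WT, and 3 rose and 1 fell in Atf4AKO, when 21.2% and 17.2% of all genes were called in either direction. Shmt1, the cytosolic hydroxymethyltransferase that moves a carbon from serine to folate, rose by a log2 change of 1.52 in Atf4WT (adjusted p = 0.000118) and 1.68 in Atf4AKO. Shmt2, its mitochondrial counterpart, had log2 changes of 0.12 in Atf4WT and -0.32 in Atf4AKO, neither called. Pgam1, the glycolytic mutase just below the branch to serine, rose by 1.07 in Atf4WT and 1.13 in Atf4AKO. Gldc, the decarboxylase of the glycine cleavage system, fell by 1.11 in Atf4WT, and its -0.40 in Atf4AKO was not called. The median log2 change of the list was -0.01 in Atf4WT and 0.15 in Atf4AKO.

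Asns, for the synthesis of asparagine, and Aspg, for its breakdown, both rose after cold. Asns encodes asparagine synthetase, which makes asparagine from aspartate and glutamine (chromosome 6, 7675169 to 7693254, minus strand). Its normalized counts were 2312, 2768 and 2062 in Atf4WT at RT, 1788, 2852 and 1961 in Atf4AKO at RT, 3855, 4361 and 3700 in Atf4WT after cold, and 3231, 4575 and 3801 in Atf4AKO after cold. Cold libraries were above RT libraries in both genotypes. Asns rose by a log2 change of 0.75 in Atf4WT (SE 0.181, adjusted p = 0.0102) and 0.83 in Atf4AKO (adjusted p = 0.00716). The rises differed between the genotypes by 0.08, with a 95% interval of -0.48 to 0.65.

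Aspg encodes an asparaginase, which returns asparagine to aspartate (chromosome 12, 112106679 to 112127559, plus strand). It had normalized counts of 322, 320 and 334 in Atf4WT at RT, 526, 494 and 530 in Atf4AKO at RT, 1770, 2107 and 1894 in Atf4WT after cold, and 1578, 2150 and 2155 in Atf4AKO after cold. The lowest cold library held more than any RT library by a wide margin in both genotypes. Aspg rose 5.88-fold in Atf4WT (log2 change 2.56, SE 0.119, adjusted p = 1.32e-06) and 3.75-fold in Atf4AKO (log2 change 1.91, adjusted p = 8.69e-06). Its p-value ranked 2 of 13404 genes in Atf4WT and 6 in Atf4AKO.

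Among the 17 aspartate and asparagine genes tested, 5 rose and 1 fell in Atf4WT, and 4 rose and 0 fell in Atf4AKO, against 21.2% and 17.2% of all genes in either direction. Got1, the cytosolic aspartate aminotransferase, rose by a log2 change of 2.30 in Atf4WT (adjusted p = 6.88e-05) and 2.52 in Atf4AKO. Got2, the mitochondrial enzyme, had log2 changes of -0.25 and -0.43, neither called. Aspa and Nat8l, which split and form N-acetylaspartate, rose by 0.85 and 0.66 in Atf4WT (Nat8l was at 0.56 and not called without Atf4WT RT replicate 2), and in Atf4AKO Aspa rose by 0.99 while Nat8l was at 0.53 and not called. Gpt, an alanine aminotransferase, fell by 0.69 in Atf4WT, a call lost without Atf4WT RT replicate 1 (-0.58). The other asparaginase gene, Asrgl1, had log2 changes of -0.21 and -0.19. The median log2 change of the list was 0.14 in Atf4WT and 0.22 in Atf4AKO.

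In proline synthesis, the last enzyme fell sharply in both genotypes. Pycr1 encodes the mitochondrial pyrroline-5-carboxylate reductase that completes proline (chromosome 11, 120635712 to 120643769, minus strand). Its normalized counts were 92.8, 96.2 and 83.4 in Atf4WT at RT, 81.8, 90.6 and 109 in Atf4AKO at RT, 21.6, 12.7 and 17.0 in Atf4WT after cold, and 42.5, 18.1 and 10.7 in Atf4AKO after cold. Cold libraries lay below RT libraries in both genotypes. After cold these values rested on 10 to 40 reads, so their relative counting error was larger than at RT. Pycr1 fell 5.18-fold in Atf4WT (log2 change -2.37, SE 0.403, adjusted p = 0.00171) and 4.40-fold in Atf4AKO (log2 change -2.14, adjusted p = 0.00344). Fibroblast markers were also lower after cold, and the mean log2 value of 6 markers was 13.0 to 13.7 at RT and 11.2 to 13.0 after cold. Of the 6, 3 (Col1a1, Dcn, Dpt) fell in each genotype, when 10.3% of all genes fell in Atf4WT and 8.92% in Atf4AKO. Cold and RT met at 13.0, in Atf4WT cold replicate 0 with Pycr1 at 21.6 and Atf4AKO RT replicate 1 with Pycr1 at 90.6. The summed normalized count of these 6 markers was 81860 to 119240 at RT and 27080 to 70461 after cold. Their part in the fall of Pycr1 was not tested.

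Aldh18a1 encodes the enzyme that converts glutamate to pyrroline-5-carboxylate, the first step toward proline (chromosome 19, 40550257 to 40588463, minus strand). It had normalized counts of 329, 201 and 340 in Atf4WT at RT, 295, 269 and 294 in Atf4AKO at RT, 202, 243 and 336 in Atf4WT after cold, and 170, 65.8 and 134 in Atf4AKO after cold. Atf4AKO libraries after cold were below all 9 others, and the remaining groups overlapped. The cold change was -0.15 on the log2 scale in Atf4WT (adjusted p = 0.759), with a 95% interval of -0.87 to 0.57. In Atf4AKO the gene fell by 1.31 on the log2 scale (SE 0.328, adjusted p = 0.0144).

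Of the 11 proline genes tested, 0 rose and 2 fell in Atf4WT, and 0 rose and 3 fell in Atf4AKO, against 10.3% and 8.92% of all genes that fell. Besides the members, Oat, ornithine aminotransferase, which links ornithine to the same intermediate, fell by 0.68 in Atf4WT (adjusted p = 0.000127) and 0.67 in Atf4AKO. Pycrl, a cytosolic pyrroline-5-carboxylate reductase gene, had log2 changes of 0.55 in Atf4WT and 0.33 in Atf4AKO and was not called. Prodh, proline dehydrogenase, which starts the breakdown of proline, had log2 changes of 0.41 in each genotype and was not called. The median log2 change of the list was -0.21 in Atf4WT and -0.25 in Atf4AKO.

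Cth encodes cystathionine gamma-lyase, which releases cysteine from cystathionine (chromosome 3, 157894248 to 157925077, minus strand). Its normalized counts were 570, 572 and 331 in Atf4WT at RT, 581, 678 and 527 in Atf4AKO at RT, 657, 700 and 466 in Atf4WT after cold, and 494, 660 and 509 in Atf4AKO after cold. The 4 groups overlapped. The log2 change with cold was 0.33 in Atf4WT, with a 95% interval of -0.17 to 0.83, and -0.11 in Atf4AKO, with an interval of -0.61 to 0.39. Among the 21 cysteine and methionine genes tested, 2 rose and 2 fell in Atf4WT, and 2 rose and 1 fell in Atf4AKO, against 21.2% and 17.2% of all genes in either direction. Gss, glutathione synthetase, rose by 0.88 in Atf4WT and 1.20 in Atf4AKO, and Suox, sulfite oxidase, fell by 0.79 and 0.71, the latter at -0.57 and not called without Atf4AKO RT replicate 1. Cbs, the enzyme before Cth, had log2 changes of 0.59 and 0.68 and was not called. The median log2 change of the list was -0.09 in Atf4WT and 0.03 in Atf4AKO.

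**Figure D3:**
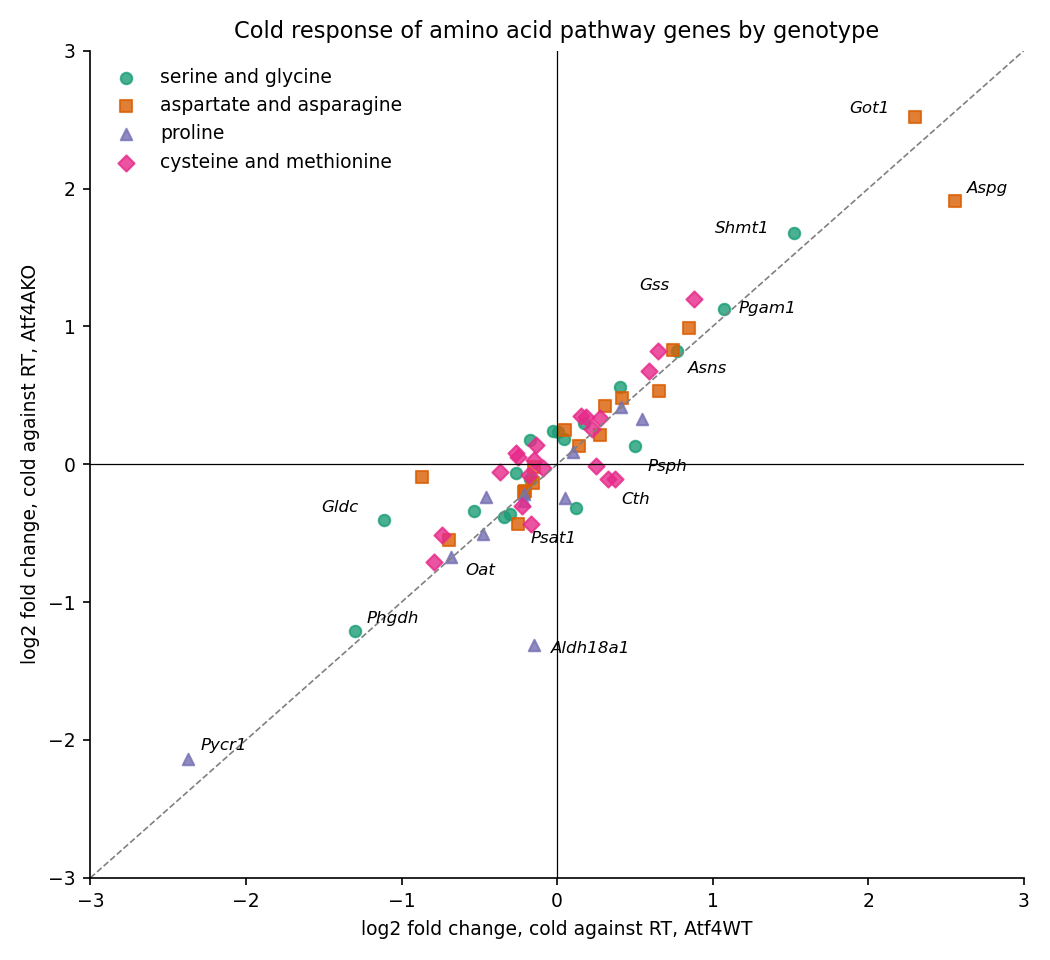
Log2 fold change of cold against RT in Atf4WT (x axis) and Atf4AKO (y axis) for the tested serine and glycine, aspartate and asparagine, proline, and cysteine and methionine genes; each point is 1 gene and the dashed line marks equal changes. Got1 and Aspg lie at the top right and Pycr1 at the bottom left, while Aldh18a1 lies far below the line, at -0.15 in Atf4WT and -1.31 in Atf4AKO.

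Between genotypes at RT, 1 of the 8 genes passed the thresholds, Aspg, which was higher in Atf4AKO, when 0.463% of all genes tested passed and 0.179% were higher. Its 3 Atf4AKO values, 494 to 530, lay above its 3 Atf4WT values, 320 to 334, and groups were apart in either direction for 6.3% of all genes. Aspg was higher by a log2 change of 0.67, or 1.59-fold (SE 0.119, unadjusted p = 0.000153), and its p-value ranked 5 of all genes. It did not hold after adjustment over all genes by limma (adjusted p = 0.411) or edgeR (adjusted p = 0.57), but did by DESeq2 (adjusted p = 0.00832). After cold the same gene differed between genotypes by 0.02, with a 95% interval of -0.24 to 0.28. The cold rise of Aspg was therefore smaller in Atf4AKO by 0.65 on the log2 scale (unadjusted p = 0.0026, adjusted p = 0.474). That contrast and the one at RT share the RT libraries, and the difference fell under the 1.5-fold threshold without Atf4WT cold replicate 1 (-0.58) or without Atf4AKO cold replicate 0 (-0.50).

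After cold, 1 of the 8 passed between genotypes, Aldh18a1, which was lower in Atf4AKO, when 6.4% of all genes tested passed, 6.04% lower and 0.358% higher. Aldh18a1 and Psph were the 2 of 8 genes with no overlap between genotypes, as were 16.5% of all genes. Aldh18a1 was lower by 1.15 on the log2 scale (SE 0.328, unadjusted p = 0.00496, adjusted p = 0.141, and 0.0288 by DESeq2 or 0.17 by edgeR). Its cold change was more negative in Atf4AKO by 1.16 (unadjusted p = 0.0291, adjusted p = 0.602). This call was lost without Atf4WT RT replicate 1 (-0.92), Atf4WT cold replicate 2 (-0.96), Atf4AKO cold replicate 1 (-0.77), or Atf4AKO RT replicate 0 or 2 (-1.14 each). With Aspg, it made 2 of the 8 genes past the thresholds for the difference of the cold responses, against 4.63% of all genes, of which 4.17% were more negative in Atf4AKO. At an adjusted p under 0.05 in limma, 0 of the 8 passed in any genotype comparison. At that level 4 genes of 13404 passed after cold (0.0298%), 1 at RT (0.00746%) and 0 (0%) for the difference, where 928 (6.92%) had an unadjusted p under 0.05, and where edgeR gave 0 and DESeq2 128 at an adjusted p under 0.05.

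B and T cell markers were lower alongside Aldh18a1 in Atf4AKO after cold. All 9 B cell and all 10 T cell markers were lower in Atf4AKO than in Atf4WT after cold, with median log2 changes of -5.70 and -3.72. All 19 rose with cold in Atf4WT, where Aldh18a1 was at -0.15 and not called. With cold in Atf4AKO, where Aldh18a1 fell by 1.31, 0 of the 9 and 0 of the 10 were called (medians -0.58 and -0.82). The lymphocyte score, the mean log2 value of the 19 markers, was 7.25 to 9.72 in Atf4WT after cold and 3.36 to 4.91 in Atf4AKO after cold. With this score as a covariate, the genotype difference of Aldh18a1 after cold was -0.06 (unadjusted p = 0.912), its fall in Atf4AKO was -1.16, and its change in Atf4WT became -1.03 (unadjusted p = 0.044). The difference of its cold responses was then -0.13 (unadjusted p = 0.821), so that call was lost. The scores of the 2 cold groups do not overlap, so the covariate and the genotype cannot be told apart in the comparison after cold. Nor do the scores of Atf4WT at RT, 3.68 to 7.06, overlap those of Atf4WT after cold. The covariate and cold therefore cannot be told apart in Atf4WT, which also limits the difference of the cold responses. Proliferation markers were also lower, with 3 of 6 called and a median of -1.37. Their summed normalized count was 451 to 1017 in Atf4WT after cold and 90.3 to 720 in Atf4AKO after cold. Their part in the difference of Aldh18a1 was not tested.

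**Figure D4:**
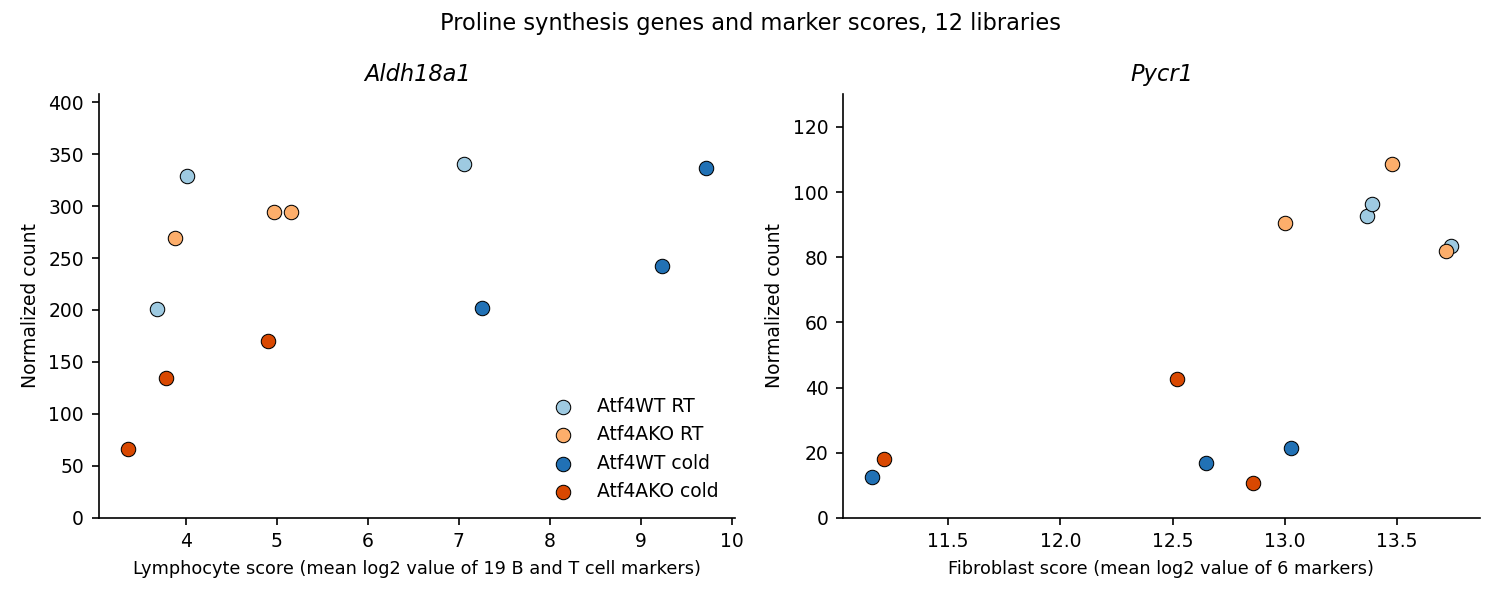
Normalized count (y axis, from 0) of Aldh18a1 against the lymphocyte score (left) and of Pycr1 against the fibroblast score (right), both scores in mean log2 units; each point is 1 of the 12 libraries, coloured by group. The 3 Atf4AKO cold libraries have the lowest Aldh18a1 counts, at scores of 3.36 to 4.91. Atf4AKO RT libraries held 269 to 295 at scores of 3.88 to 5.16. Atf4WT libraries held 201 to 340 at 3.68 to 7.06 at RT and 202 to 336 at 7.25 to 9.72 after cold.

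The other 6 genes did not pass between genotypes at either temperature in the fit without a covariate. For Phgdh the genotype difference was -0.22 at RT and -0.13 after cold, with 95% intervals of -0.51 to 0.07 and -0.42 to 0.16. For Asns it was -0.13 at RT (interval -0.53 to 0.26) and -0.05 after cold (interval -0.45 to 0.35), so without a covariate a difference of 1.5-fold lay outside all 4 of these intervals. With the lymphocyte score as a covariate, the differences after cold were -0.60 for Phgdh (unadjusted p = 0.0127, past both thresholds) and -0.62 for Asns (unadjusted p = 0.0595, not called). For Psat1 the differences were 0.13 and 0.07. Psph differed by 0.13 at RT and -0.23 after cold, where its groups did not overlap (16.5% of all genes did not) and its interval, -0.61 to 0.14, held a 1.5-fold decrease. Cth differed by 0.31 at RT (interval -0.18 to 0.81) and -0.12 after cold (interval -0.62 to 0.38), and by -1.11 after cold with the covariate (unadjusted p = 0.0021, past both thresholds), where the difference of its cold responses was -1.37. Pycr1 differed by 0.04 and 0.27, but its intervals, -0.85 to 0.92 and -0.61 to 1.16, were wide enough to hold a 1.5-fold difference either way.

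A wider ATF4-linked list was set beside these values. Of its 27 genes tested, 12 rose and 3 fell with cold in Atf4WT, when 10.9% of all genes rose and 10.3% fell. The rises of Slc7a5, Gdf15 and Mthfd1l were not called in some fits that left out 1 library. With the lymphocyte covariate they were not called either (0.10, 1.78 and 0.26), nor was that of Mthfd2 (0.62). The falls, of Nupr1, Slc1a4 and Eif4ebp1, were each lost with the covariate and in some fits that left out 1 library. In Atf4AKO 7 rose and 2 fell, when 8.3% of all genes rose and 8.92% fell, and the rise of Ddit3 and the fall of Slc1a4 were lost in some such fits. After cold 0 were higher and 5 lower in Atf4AKO, when 6.04% of all genes were lower. The 5 were Mthfd2 and Mthfd1l, mitochondrial folate enzymes, at log2 changes of -2.08 and -2.05, the amino acid transporter gene Slc7a5 at -1.27, the transcription factor gene Atf5 at -0.97 and the pseudokinase gene Trib3 at -0.82. Only Atf5 among them passed adjustment (adjusted p = 0.0156). The Trib3 call was lost in 8 of 12 fits that left out 1 library (any Atf4WT RT replicate, Atf4AKO RT replicate 0, Atf4WT cold replicates 0 and 1, Atf4AKO cold replicates 0 and 2), whose values over all 12 ran from -1.18 to -0.56, and in edgeR (-0.79, unadjusted p = 0.0582). B and T cell markers were lower in Atf4AKO after cold as well. With the lymphocyte covariate Slc7a5 was -0.38 (unadjusted p = 0.56) and Mthfd1l -0.95 (unadjusted p = 0.261). Trib3 was -1.30 (unadjusted p = 0.0931), so these calls were lost, while Mthfd2 was -1.36 (unadjusted p = 0.0478) and Atf5 -1.27. At RT, when 0.283% of all genes were lower, 2 of the list were, Atf5 at -0.68 and Slc1a4 at -0.64, and the Slc1a4 call was lost without Atf4WT RT replicate 1 (-0.53) or 2 (-0.62), or Atf4AKO RT replicate 1 (-0.61) or 2 (-0.49). In the serine list, Shmt2 was lower in Atf4AKO after cold by 0.59 (adjusted p = 0.0695). That call was lost without Atf4WT cold replicate 1 (-0.57) or 2 (-0.49) or Atf4AKO cold replicate 1 (-0.52), and the value was -0.21 with the lymphocyte covariate (unadjusted p = 0.356). In the asparagine and cysteine lists 0 genes passed between genotypes after cold, and in the proline list Aldh18a1 alone did.

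Over the 12 libraries, each gene was also set against the 11841 genes with a mean normalized count of at least 50 by Pearson's r of log2 values, as a description. The libraries share the 4 group means, so a high r reflects them as well. The nearest genes to Phgdh were Arl3 (r = 0.987), Palm (0.986) and Oat (0.981), the ornithine enzyme that fell with it. For Aspg they were Ncbp1 (0.990), Dnajb9 (0.989), an ER chaperone gene, and Akt1 (0.981). For Aldh18a1 they were H2-M3 (0.984), H2-Ab1 (0.975) and Cd74 (0.971), genes of antigen presentation. For Pycr1 they were Anxa2 (0.977), Rrbp1 (0.976) and Gpx7 (0.975). Asns lay nearest to Cpn2 (0.966), Ldhb (0.964) and Thg1l (0.962). The others had somewhat lower values, with Rxra for Psat1 (0.947), Nfatc3 for Psph (0.944) and Taf10 for Cth (0.950) in first place.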

How the data were processed

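Stranded libraries of polyadenylated RNA from iWAT were made with a DNBSEQ kit. Read filtering (SOAPnuke), alignment to mm10 (STAR), counting of unique reads (featureCounts) and division by DESeq2 size factors were done by the authors. These deposited normalized counts have the unit signal, a read-based signal per gene. The versions and the strand setting of the counting are not given in the sources used here. For all values (100%) the reads could be recovered as whole numbers within 0.001 reads, and totals over the listed genes were 25719476 to 29105147 per library.

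Log2(normalized count + 1) was fitted with 4 group means in limma 3.58.1 (R 4.3.3, empirical Bayes with trend) and genes whose mean was under 10 (755) were left out, so that 13404 were tested. Fold changes are on that scale, which understates those of low genes. The script was tested on simulated data. DEG thresholds were those of the study (fold change 1.5, unadjusted p 0.05). Confidence intervals are 95%. Count tests on the recovered reads used edgeR 4.0.16 and DESeq2 1.42.0.

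Named genes were the 8 members, Atf4, fixed pathway counterparts, up to 4 further called genes per list and comparison, and the 3 genes nearest each member. Gene lists and members were chosen with earlier results of these data known, and lists are described by counts and medians. Markers beside a result were examined as listed. Alternatives changed the pseudocount, the filter, the scaling, the test, the samples, a replicate block and a lymphocyte covariate. The labels do not say whether replicate numbers pair libraries, and the main fit did not pair them. Positions and lengths are from GENCODE M21 and promoters from RefSeq (GRCm38.p6).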

Additional observations from a re-analysis of the deposited data

Results flagged for a closer look

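The cold response differed between genotypes, by the test of the difference in limma at an unadjusted p under 0.05 and a fold over 1.5, for these named genes. For Aspg it was smaller in Atf4AKO by a log2 value of -0.65 (adjusted p = 0.474), where the gene was already higher at RT and level between genotypes after cold. For Aldh18a1 the value was -1.16 (adjusted p = 0.602), and it was -0.13 with the lymphocyte covariate (unadjusted p = 0.821). All 9 B and 10 T cell markers were also called more negative for this difference. They rose with cold in Atf4WT, where Aldh18a1 was at -0.15, and 0 of them were called in Atf4AKO, where Aldh18a1 fell by 1.31. Lymphocyte scores of Atf4WT at RT and after cold do not overlap, so the covariate and cold cannot be told apart there. Atf4 itself had -1.0 (adjusted p = 0.478), and the folate enzyme genes Mthfd2 and Mthfd1l had -1.57 and -2.04 (adjusted p = 0.474 and 0.481). With the lymphocyte covariate the values of Mthfd2 and Mthfd1l were -0.88 and -0.996 (unadjusted p = 0.212 and 0.282), and neither was called. None of these passed adjustment over all genes, in a comparison where 928 of 13404 genes had an unadjusted p under 0.05 and 0 an adjusted p under 0.05 (edgeR 0, DESeq2 128).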

How the results depend on the processing

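Of 952 alternative values for the 8 genes over the 5 comparisons, 898 kept their direction and side of the thresholds, 10 lost a call, 7 gained one and 37 changed sign. Many of the 952 could not change direction. Leaving out a library of a group not compared, changing the filter, adding the replicate block or fitting only the groups compared kept the log2 change by construction. The lymphocyte covariate moved the members called from 4 to 7 for cold in Atf4WT and from 1 to 2 for genotype after cold. In both comparisons the lymphocyte scores of the groups do not overlap, so the covariate cannot be told apart from cold or genotype. An adjusted p under 0.05 left 0 members in place of 1 at RT and 0 in place of 1 after cold. For the difference of the cold responses it left 0 in place of 2. That last count was 1 to 2 when 1 library was left out, being 1 without any of Atf4WT RT replicate 1, Atf4AKO RT replicates 0 and 2, Atf4WT cold replicates 1 and 2, and Atf4AKO cold replicates 0 and 1. It was 1 without the 2 cold libraries low in fibroblast markers, an alternative chosen after seeing the data, as was leaving out the 2 libraries high in muscle markers, which kept all 5 counts of members called.

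Sign changes were all of values not called in the full data. With the covariate Psat1 became 0.057 for cold in Atf4WT and -0.37 for genotype after cold, and the differences of the cold responses became -0.35 for Phgdh and -0.46 for Asns. For Cth the covariate gave calls of 1.13 for cold in Atf4WT, -1.11 for genotype after cold and -1.37 for the difference, and for Phgdh one of -0.60 after cold. Scaling by the 75th percentile gave -0.028 for Aspg after cold, and edgeR and DESeq2 gave -0.033 and -0.021 for Aldh18a1 at RT. Without the 2 libraries high in muscle markers, values were 0.15 for Aldh18a1 with cold in Atf4WT, -0.041 for Aspg after cold, -0.041 for Psph and -0.023 for Pycr1 at RT, and 0.092 for the difference of Psat1. The causes were not tested.

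Leaving out 1 library gave ranges across 0 of -0.39 to 0.017 for Aldh18a1 with cold in Atf4WT and -0.018 to 0.27 for Psph with cold in Atf4AKO. Between genotypes after cold they were -0.0051 to 0.16 for Psat1, -0.18 to 0.074 for Asns, -0.059 to 0.17 for Aspg and -0.24 to 0.71 for Pycr1. At RT they were -0.041 to 0.29 for Psph, -0.34 to 0.0012 for Asns, -0.23 to 0.15 for Aldh18a1 and -0.074 to 0.13 for Pycr1. For the difference of the cold responses they were -0.0097 to 0.20 for Phgdh, -0.14 to 0.029 for Psat1, -0.050 to 0.29 for Asns and -0.28 to 0.67 for Pycr1. Adjusted p over the alternatives ran from 0.0288 to 1.00 for Aldh18a1 between genotypes after cold and from 0.00832 to 1.00 for Aspg at RT, the lowest in DESeq2.

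Replicate numbers were shared across groups, but libraries of the same number did not deviate together in every pair (r from -0.19 to 0.39), and 2 to 4 of 6 libraries per comparison correlated best with their own number. With the replicate block the members called remained 4, 5, 1, 1 and 2 in number. Genes called over all tested went from 2846 to 3008 for cold in Atf4WT and from 2309 to 2493 for cold in Atf4AKO. They went from 858 to 926 for genotype after cold, 62 to 69 at RT and 621 to 744 for the difference of the cold responses. Over all genes, an adjusted p under 0.05 was reached by 4 genes in limma, 3 in edgeR and 591 in DESeq2 for genotype after cold, by 1, 1 and 4 at RT, and by 0, 0 and 128 for the difference. Pycr1 after cold rested on 10 to 40 reads, and its genotype interval there held a 1.5-fold difference either way.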
